A study of Homo sapiens with 8 samples.

Results

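The genes described here are a module of 35 genes that cells are known to induce at low oxygen, together with the enzymes of glucose breakdown that belong to the same response. They were listed by name, with no threshold on a value measured here, though earlier results of these data were known when the list was drawn up. Of the 35 genes, 34 had a probe set with exactly 1 gene symbol, among 18404 genes measured in that way. CA9 was not analysed here. All 34 entered the tests, since no filter on level was used.

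RNA levels came from 8 whole-transcript arrays of HSC39, a human gastric cancer line of the signet ring type. Of these, 2 arrays were of cells given TRIM44 siRNA 7, 2 of cells given TRIM44 siRNA 9 and 4 of cells given the All stars negative siRNA. siRNA 7 and siRNA 9 are separate small interfering RNAs against TRIM44, a tripartite motif protein with a ubiquitin-binding zinc finger. All cells were grown in RPMI medium with 10% fetal calf serum, and the labels give 100 nM siRNA (written nm) for 48 h, in wording that mentions only TRIM44 siRNA. The series text counts 4 biological replicates per condition and calls the control cells untreated, and nothing else says whether arrays came from separate cultures, so a p-value reflects only how these samples vary, which may be technical variation. One cell line was used, no oxygen level is stated, and in RNA of a whole culture a change in which cells are present and a change in RNA per cell cannot be told apart.

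Hypoxia-inducible factor (HIF) is a pair of proteins, an oxygen-regulated alpha subunit and a constant partner. When oxygen is present, prolyl hydroxylases of the EGLN family mark the alpha subunit for destruction by the VHL ubiquitin ligase; when oxygen is short, the alpha subunit persists, enters the nucleus and binds short sites that share the core letters ACGTG or, with a first base of G, the variant GCGTG. The bound genes cover glucose uptake and glycolysis, the diversion of pyruvate from mitochondria, removal of mitochondria, collagen hydroxylation, blood vessel growth, and EGLN1 and EGLN3 themselves, which closes a feedback loop. The amount of HIF1A protein is known to be set mainly by its destruction, less by its RNA.

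The letters in question are shown for KDM3A, INSIG2 and EGLN1, which differed between the siRNAs in the tests below, and for LDHA, whose level hardly varied. Each is the 250 bases before the annotated start, from RefSeq (GRCh38.p14), written 5′ to 3′ on the strand of the gene, with ACGTG in capitals, and likewise the variant GCGTG and both reverse complements.
KDM3A, chr2:86441121-86441370, plus strand: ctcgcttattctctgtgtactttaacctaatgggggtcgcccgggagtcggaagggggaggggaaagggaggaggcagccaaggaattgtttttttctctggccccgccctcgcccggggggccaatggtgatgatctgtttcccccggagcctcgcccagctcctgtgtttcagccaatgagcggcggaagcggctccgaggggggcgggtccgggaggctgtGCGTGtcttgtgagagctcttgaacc
INSIG2, chr2:118088221-118088470, plus strand: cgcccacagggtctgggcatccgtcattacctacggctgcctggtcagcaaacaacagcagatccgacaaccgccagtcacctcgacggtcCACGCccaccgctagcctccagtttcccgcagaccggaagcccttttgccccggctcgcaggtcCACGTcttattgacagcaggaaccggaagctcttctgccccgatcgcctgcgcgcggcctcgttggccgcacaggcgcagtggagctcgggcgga
EGLN1, chr1:231422288-231422537, minus strand: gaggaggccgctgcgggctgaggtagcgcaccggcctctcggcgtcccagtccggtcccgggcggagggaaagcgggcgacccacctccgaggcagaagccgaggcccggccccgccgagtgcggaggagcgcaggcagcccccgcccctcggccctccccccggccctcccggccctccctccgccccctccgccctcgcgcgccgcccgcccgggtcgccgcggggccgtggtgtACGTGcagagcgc
LDHA, chr11:18394313-18394562, plus strand: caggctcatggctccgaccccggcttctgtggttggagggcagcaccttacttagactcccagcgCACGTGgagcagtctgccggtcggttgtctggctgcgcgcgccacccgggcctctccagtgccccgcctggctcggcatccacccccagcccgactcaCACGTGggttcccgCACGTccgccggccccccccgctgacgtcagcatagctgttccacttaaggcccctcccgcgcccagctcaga
The match in KDM3A is GCGTG on the strand of the gene and begins 26 bases before the start. That in EGLN1 is ACGTG on the strand of the gene, 13 bases before the start. INSIG2 has both motifs on the opposite strand, and LDHA has CACGTG in 2 places, which reads ACGTG on either strand, beside 1 further match. Of 29 members with a promoter in the RefSeq table, 22 (75.9%) had at least 1 match in this window, against 43.1% of 27305 promoters of the same length, with overlapping matches counted once. The 29 leave out STC1, NDRG1, BNIP3L, VEGFA and SLC2A3. Both motifs hold the letters CG, and the 27305 promoters were not matched to the members for base composition. A match describes the letters only. Members with several matches were found both among genes that varied more, such as HK2 with 3, and among genes of little range, such as LDHA with 3.

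TRIM44 itself was lower on all 4 TRIM44 siRNA arrays than on any negative array. Its log2 level was 10.85 and 11.27 with siRNA 7 and 11.10 and 11.14 with siRNA 9, against 11.91, 12.02, 11.91 and 11.77 with negative siRNA. The difference of siRNA 7 and siRNA 9 together from negative siRNA was -0.81 (SE 0.10, limma adjusted p = 0.0449; exact permutation p = 0.0286, the smallest that 70 assignments allow in a 2-sided test). It was -0.84 with siRNA 7 and -0.78 with siRNA 9 (limma adjusted p = 0.0405 and 0.0155), and the siRNAs differed from each other by -0.06 (SE 0.14, adjusted p = 0.903). The call of TRIM44 did not hold throughout, though its difference stayed between -0.88 and -0.73 for both siRNAs together. That call was lost in 11 of 18 alternatives, among them median centring, all probe sets, the replicate block, siRNA identity as a random block and leaving out any single array other than siRNA 7 array 2 (adjusted p over the 18 from 0.00274 to 0.998). With siRNA 7 it was lost in 10 of 17, including any single array left out other than negative array 2 and siRNA 7 array 2. With siRNA 9 it was lost in 3 of 17, all probe sets and either siRNA 9 array left out. The epithelial markers EPCAM, CDH1, KRT8, KRT18 and KRT19 had levels of 11.62 to 13.18 on all arrays. Of the other cell types' 12 measured markers, LUM lay at 9.49 to 10.17 and the other 11 at 4.07 to 7.86. Pairs of arrays correlated at 0.991 to 0.997, and array medians lay between 6.78 and 6.87. The 4 negative arrays were not alike. The first principal component held 32.5% of the variance. On it the siRNA 7 arrays lay at -11.5 and -5.70, the siRNA 9 arrays at 15.5 and 17.2, negative array 2 at 13.6 and the other negative arrays between -11.8 and -5.57. Without it the main counts, the medians and the calls that change are given below.

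The module differed between siRNA 7 and siRNA 9 and among the negative arrays more than between TRIM44 siRNA as a whole and negative siRNA. Most members lay lower with siRNA 7 than with siRNA 9, and the negative arrays spread over the same range. Each member was centred on its mean over the 8 arrays, and the average over the 34 members was then taken per array. It was -0.18 and -0.11 on the log2 scale with siRNA 7 and 0.25 and 0.21 with siRNA 9. On the negative arrays it was -0.26, 0.21, -0.10 and -0.02. Negative array 2 therefore stood within the siRNA 9 values, and negative array 1 below both siRNA 7 arrays.

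**Figure D1:**
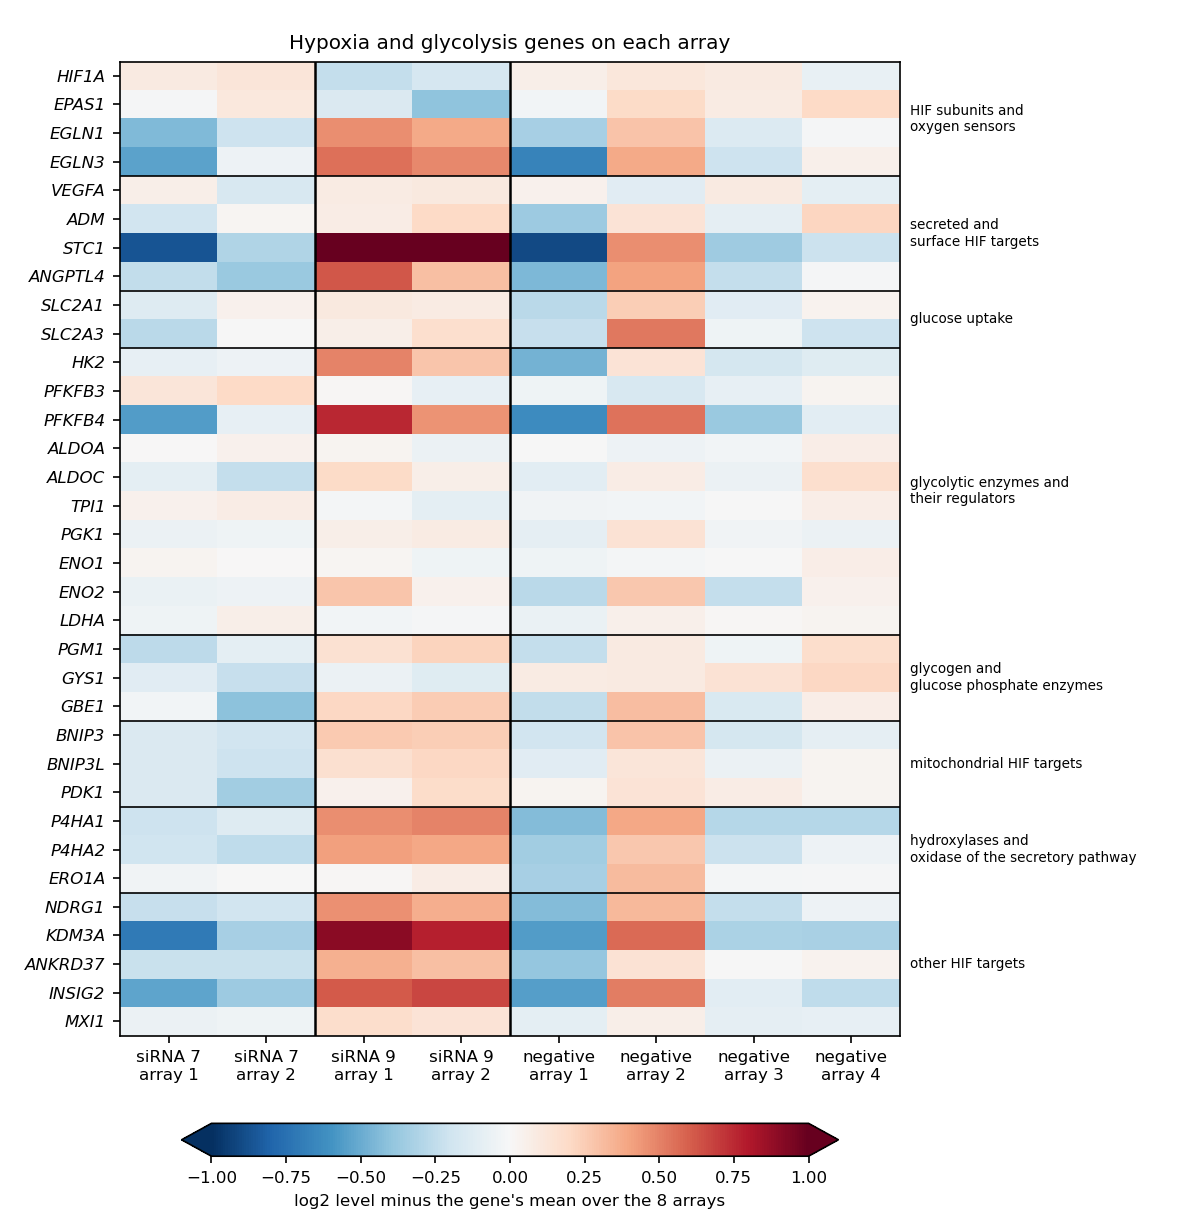
Level of each of the 34 measured members on each of the 8 arrays, as the log2 level minus the mean of the gene over the 8 arrays, grouped by role (colour scale ends at -1 and 1; only STC1 passes it). Many HIF targets were high with siRNA 9 and on negative array 2, and low with siRNA 7 and on negative array 1, while ALDOA, TPI1, ENO1 and LDHA were nearly level.

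With TRIM44 siRNA taken as 1 condition, 0 of 34 members passed a limma adjusted p of 0.05 for TRIM44 siRNA against negative siRNA, where 0.00522% of the 19158 probe sets tested passed (1, TRIM44). At an unadjusted p under 0.05 there was 1 member, GYS1 (2.94%), against 1041 of all probe sets (5.43%). The median difference of the members was 0.05, beside 0.01 over all probe sets. Single arrays decided its size and sign: it was -0.00078 without negative array 1 (17 members above 0 and 17 below), 0.13 without negative array 2, 0.03 without negative array 3, 0.10 and 0.09 without siRNA 7 array 1 or 2, and 0.01 and 0.02 without siRNA 9 array 1 or 2. No member (0 of 34) had all 4 TRIM44 siRNA arrays above all 4 negative arrays, as did 1.59% of probe sets, and GYS1 alone (2.94%) had all 4 below, as did 1.26% of probe sets.

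With siRNA 7 against negative siRNA 0 members passed, where 0.0679% of probe sets did, and with siRNA 9 against negative siRNA also 0, where 0.924% did. The counts at an unadjusted p under 0.05 were 3 members (8.82%) with siRNA 7, against 1430 of all probe sets (7.46%), and 17 members (50%) with siRNA 9, against 2608 (13.6%). The siRNA 7 and siRNA 9 comparisons share the same 4 negative arrays. Median differences of the members from negative siRNA were -0.12 with siRNA 7 and 0.19 with siRNA 9, beside -0.0021 and 0.02 over all probe sets. The siRNA 7 median rested on single arrays, with -0.01 without negative array 2 (16 members above 0 and 18 below), -0.02 without siRNA 7 array 1 and -0.19 without negative array 1, and it was -0.03 with array weights. The siRNA 9 median was 0.13 without negative array 1 and 0.16 to 0.24 without any other single array. In 12 members (35.3%) both siRNA 9 arrays lay above all 4 negative arrays, as did 13.4% of probe sets, and in 3 members (8.82%; HIF1A, EPAS1 and GYS1) both lay below, as did 9.23%. Both siRNA 7 arrays lay above all negative arrays in 1 member (2.94%; PFKFB3), as in 6.38% of probe sets, and below in 3 (8.82%; GYS1, BNIP3L and PDK1), as in 7.99%. The siRNA 7 shares are thus near or below those of all probe sets.

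The siRNAs were also compared with each other, with no negative array in the difference. Here 4 members, STC1, KDM3A, INSIG2 and EGLN1, passed the threshold, all lower with siRNA 7. They are 11.8% of the 34, where 2.23% of all probe sets passed and 1.41% passed in that direction. Over all probe sets 157 were higher and 271 lower with siRNA 7, and the split became 209 and 185 when each array was centred on its median. The median member difference, siRNA 7 minus siRNA 9, was -0.32, beside -0.03 over all probe sets. Both siRNA 7 arrays lay below both siRNA 9 arrays in 26 members (76.5%), as in 28.7% of probe sets. The count of 4 rested on every array of the siRNAs: it was 0 when any of these 4 arrays was left out, and the lone array left was then taken to vary as the other groups do. It was 2 (STC1 and KDM3A) without negative array 3 or without negative array 4, where 1.14% and 2.59% of all probe sets passed. Without negative array 2, which enters through the estimate of the spread, it was 12 of 34, where 5.48% of all probe sets passed.

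Of the single arrays, negative array 2 changed the count of members called for siRNA 9 against negative siRNA most when left out. With siRNA 9 against the remaining 3 negative arrays, 12 members rose (35.3%) and 0 fell. Of all probe sets, 5.57% passed in that fit and 3.70% passed as higher. The 12 were EGLN1, EGLN3, STC1, ANGPTL4, HK2, PFKFB4, BNIP3, P4HA1, P4HA2, NDRG1, KDM3A and INSIG2. The median member difference was then 0.24, beside 0.0046 over all probe sets. Without siRNA 7 array 1 or without siRNA 7 array 2 the count was 1 (STC1), and without any other single array it was 0. Negative array 2 was singled out after its position was seen, so this count depends on that choice. The same holds for every count, difference and adjusted p without negative array 2 given below. Where a gene was high on that array, leaving it out in itself raises the siRNA 9 difference from negative siRNA.

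**Figure D2:**
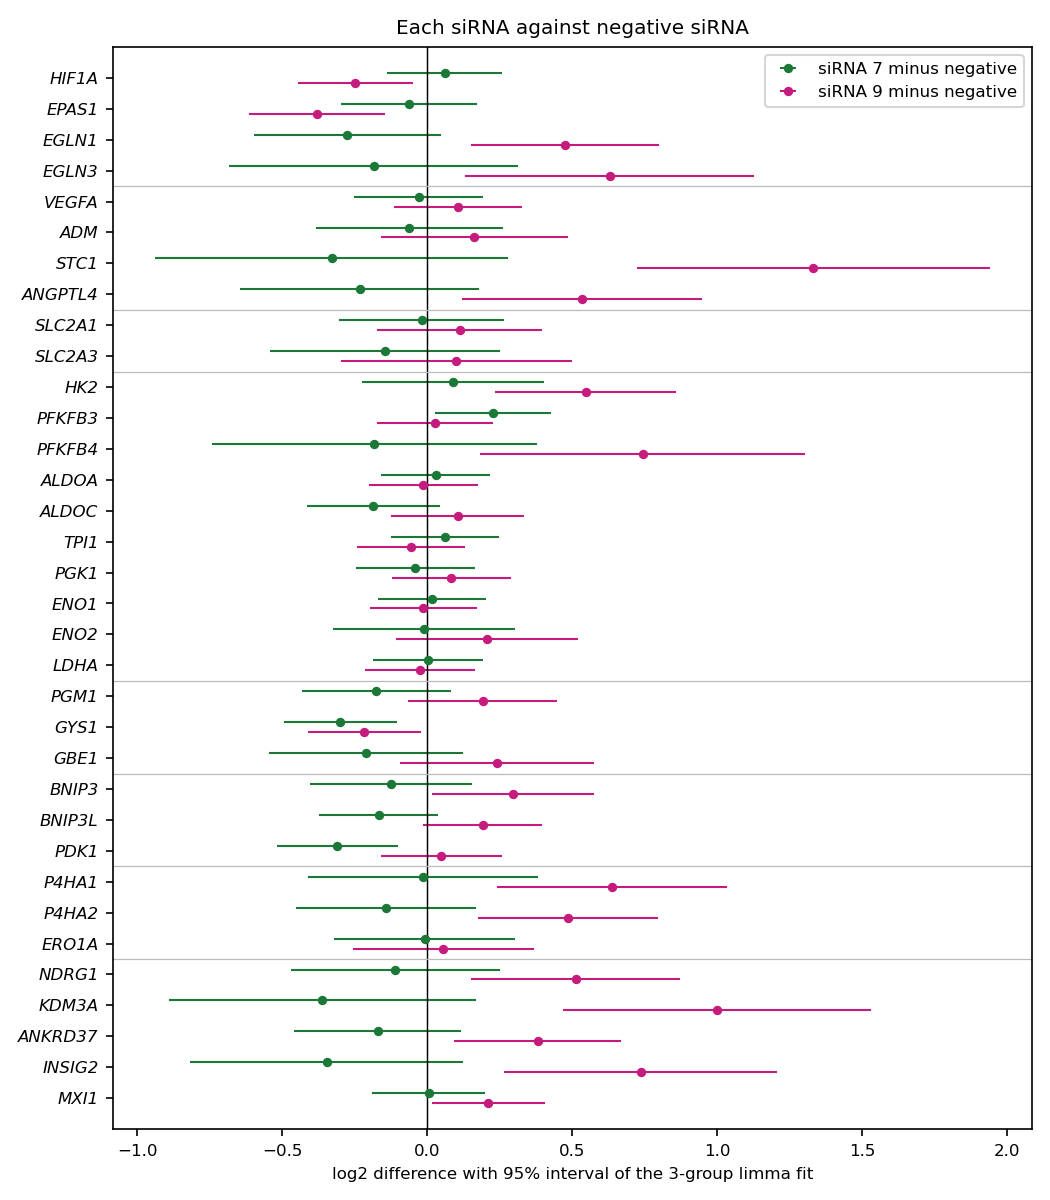
Log2 difference of siRNA 7 (green, upper of each pair) and of siRNA 9 (magenta, lower) from negative siRNA for the 34 members, with 95% intervals of the 3-group limma fit, grouped by role. The siRNA 9 differences reach 1.33 for STC1 and 0.999 for KDM3A, while the siRNA 7 differences lie between -0.36 and 0.23; both share the same 4 negative arrays.

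Among the HIF subunits and oxygen sensors, EGLN1 and EGLN3 had their highest levels with siRNA 9, and HIF1A and EPAS1 their lowest, though only EGLN1, between the siRNAs, passed the test. EGLN1, the main prolyl hydroxylase that marks HIF alpha subunits, had levels of 9.65 and 9.88 with siRNA 7 and 10.56 and 10.47 with siRNA 9, against 9.76, 10.38, 9.95 and 10.08 with negative siRNA. The siRNA 9 arrays were the highest, negative array 2 was next and the siRNA 7 arrays overlapped the negative arrays. EGLN1 was 0.75 lower with siRNA 7 than with siRNA 9 (SE 0.17, adjusted p = 0.0460). Its differences from negative siRNA were -0.28 with siRNA 7 and 0.47 with siRNA 9 (SE 0.15 each, adjusted p = 0.767 and 0.172). EGLN3, a hydroxylase that is itself strongly induced by HIF, had levels of 9.53 and 10.02 with siRNA 7 and 10.62 and 10.55 with siRNA 9, against 9.40, 10.45, 9.87 and 10.12 with negative siRNA. It showed the same order of arrays, but its differences of -0.81 between the siRNAs (SE 0.26) and 0.63 between siRNA 9 and negative siRNA (SE 0.23) did not pass (adjusted p = 0.142 and 0.237). HIF1A, the oxygen-regulated subunit found in most cells, had levels of 11.69 and 11.72 with siRNA 7 and 11.36 and 11.43 with siRNA 9, against 11.66, 11.71, 11.68 and 11.52 with negative siRNA. Its siRNA 9 arrays were the lowest of the 8, with a difference of -0.25 from negative siRNA (SE 0.09, adjusted p = 0.239). EPAS1, which encodes the related subunit HIF-2 alpha, likewise had its 2 lowest values, 9.09 and 8.83, with siRNA 9, and 9.22 and 9.34 with siRNA 7, against 9.21 to 9.43 with negative siRNA (siRNA 9 minus negative -0.38, SE 0.11, adjusted p = 0.129).

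STC1, a secreted glycoprotein hormone known as a HIF target, moved furthest. Its log2 level was 7.13 and 7.70 with siRNA 7 and 9.06 and 9.09 with siRNA 9, against 7.10, 8.46, 7.64 and 7.78 with negative siRNA. Both siRNA 9 arrays lay above every other array, negative array 2 came next, and the siRNA 7 arrays lay among the other negative arrays. The siRNA 7 minus siRNA 9 difference was -1.66 (SE 0.32, adjusted p = 0.0252), a level 3.16-fold higher with siRNA 9, and it was the lowest difference of all 19158 probe sets. The siRNA 9 minus negative difference, 1.33 (SE 0.28), was the highest of all 19158, yet its adjusted p of 0.0515 missed the threshold. The siRNA 7 minus negative difference was -0.33 (SE 0.28, adjusted p = 0.919). The negative arrays alone spanned 2.58-fold. Without negative array 2, left out after its position was seen, the STC1 difference with siRNA 9 was 1.57 (SE 0.19, adjusted p = 0.00181).

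Of the other secreted products, ANGPTL4, a secreted inhibitor of lipoprotein lipase, had levels of 7.22 and 7.11 with siRNA 7 and 8.09 and 7.77 with siRNA 9, against 7.02, 7.87, 7.24 and 7.46 with negative siRNA. The siRNA groups did not overlap, but negative array 2 lay between the siRNA 9 arrays. The siRNA 7 minus siRNA 9 difference was -0.77 (SE 0.22, adjusted p = 0.0975). VEGFA, the blood vessel growth factor, ranged only from 10.07 to 10.32 over the 8 arrays. ADM, a vasodilator peptide, ranged from 8.36 to 8.94. Their siRNA 9 minus negative differences were 0.11 and 0.16 (adjusted p = 0.742 and 0.725).

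**Figure D3:**
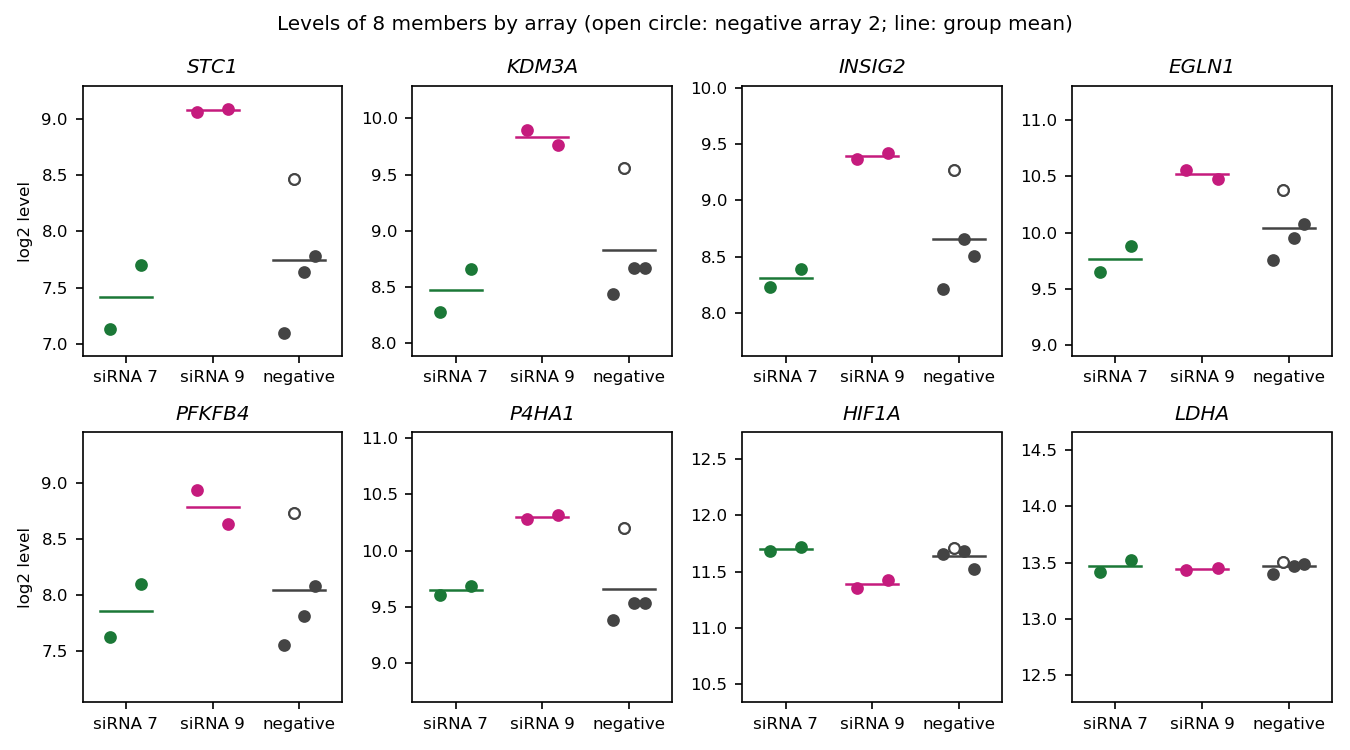
Log2 level of 8 members on each array, with siRNA 7 (green), siRNA 9 (magenta) and negative siRNA (grey); every panel spans 2.4 log2 units, the open circle is negative array 2 and the line is the group mean. STC1, KDM3A, INSIG2, EGLN1, PFKFB4 and P4HA1 show the siRNA 9 arrays and the open circle high, HIF1A the siRNA 9 arrays low, and LDHA hardly any spread.

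RNA levels of the glucose transporter genes SLC2A1 and SLC2A3 differed little between groups, and glucose uptake itself was not measured. SLC2A1, the basal glucose transporter GLUT1, had levels of 11.81 and 11.99 with siRNA 7 and 12.04 and 12.02 with siRNA 9, against 11.67, 12.19, 11.83 and 11.98 with negative siRNA. Negative arrays 1 and 2 were its lowest and highest values, so the negative group spanned both siRNAs. SLC2A3, the high-affinity transporter GLUT3, had levels of 5.89 and 6.16 with siRNA 7 and 6.22 and 6.32 with siRNA 9, against 5.93, 6.68, 6.11 and 5.95 with negative siRNA. Its highest value was that of negative array 2, and the siRNA 7 minus siRNA 9 differences were -0.13 for SLC2A1 and -0.25 for SLC2A3 (SE 0.15 and 0.21, adjusted p = 0.761 and 0.652).

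Among the glycolytic enzymes and their regulators, several enzymes showed little range in measured level and a few regulated steps varied more. HK2, the inducible hexokinase that traps glucose in the cell, had levels of 10.84 and 10.87 with siRNA 7 and 11.42 and 11.20 with siRNA 9, against 10.45, 11.06, 10.75 and 10.80 with negative siRNA. Both siRNA 9 arrays lay above every other array, with a difference of 0.55 from negative siRNA (SE 0.14, adjusted p = 0.106) and, without negative array 2, a rise of 0.64 (SE 0.12, adjusted p = 0.0106). PFKFB4, which sets the level of fructose 2,6-bisphosphate, had levels of 7.63 and 8.10 with siRNA 7 and 8.94 and 8.64 with siRNA 9, against 7.55, 8.73, 7.82 and 8.08 with negative siRNA. Negative array 2 lay between the siRNA 9 arrays and negative array 1 was the lowest of the 8. The siRNA 7 minus siRNA 9 difference of PFKFB4 was -0.93 (SE 0.30, adjusted p = 0.138). Its siRNA 9 minus negative difference was 0.74 (SE 0.26, adjusted p = 0.212), and PFKFB4 rose by 0.97 without negative array 2 (adjusted p = 0.00868). PFKFB3, its isoenzyme, went the other way between the siRNAs: both siRNA 7 arrays, 9.17 and 9.25, lay above the siRNA 9 arrays, 9.06 and 8.96, and above all negative arrays, 8.89 to 9.08. None of its differences passed; that between siRNA 7 and negative siRNA was 0.23 (SE 0.09, adjusted p = 0.591).

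ALDOA, TPI1, PGK1, ENO1 and LDHA, enzymes from the aldolase step onward, ranged by little over the 8 arrays. Of these, ENO1 and LDHA lay nearest the highest level of any probe set tested, which was 14.04 to 14.18 depending on the array. TPI1 and PGK1 lay further below that level, and ALDOA furthest. Array signals can be compressed near the highest level, which was not tested. ENO1 ranged from 13.64 to 13.75, LDHA from 13.39 to 13.52 and ALDOA from 10.89 to 11.02. TPI1 ranged from 12.81 to 12.98. PGK1 ranged from 12.94 to 13.17, with its highest value on negative array 2 and both siRNA 7 arrays below both siRNA 9 arrays. The differences of siRNA 9 from negative siRNA were -0.01, -0.02, -0.01, -0.06 and 0.08 for ENO1, LDHA, ALDOA, TPI1 and PGK1, each with an SE of at most 0.09 (adjusted p = 0.798 to 0.972). The second probe set of TPI1 lay at 7.26 to 7.59. ALDOC and ENO2, the isoenzymes known from brain, varied more: ALDOC ranged from 11.28 to 11.71 and ENO2 from 8.18 to 8.72, both with the siRNA 7 arrays below the siRNA 9 arrays (siRNA 7 minus siRNA 9 -0.29 and -0.22, adjusted p = 0.264 and 0.599).

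Of the enzymes of glycogen and glucose phosphate, GYS1, muscle-type glycogen synthase, was the only member on which both siRNAs lay on the same side of all negative arrays. Its levels were 9.70 and 9.59 with siRNA 7 and 9.76 and 9.70 with siRNA 9, against 9.90, 9.91, 9.96 and 10.02 with negative siRNA. Negative array 2 was not apart here. The difference of both siRNAs together from negative siRNA was -0.26 (SE 0.08), and its adjusted p of 0.788 missed the threshold by far in the fit over all probe sets. GBE1, the glycogen branching enzyme, had levels of 8.91 and 8.53 with siRNA 7 and 9.15 and 9.20 with siRNA 9, against 8.69, 9.24, 8.78 and 9.01 with negative siRNA. PGM1, which interconverts glucose 1-phosphate and glucose 6-phosphate, had levels of 6.05 and 6.21 with siRNA 7 and 6.46 and 6.53 with siRNA 9, against 6.07 to 6.48 with negative siRNA. Both overlapped the negative arrays, and the siRNA 7 minus siRNA 9 differences were -0.45 and -0.37 (adjusted p = 0.228 and 0.200).

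The mitochondrial targets were all lower with siRNA 7 than with siRNA 9, without passing the test. BNIP3, a receptor that marks mitochondria for removal, had levels of 12.31 and 12.27 with siRNA 7 and 12.71 and 12.70 with siRNA 9, against 12.27, 12.74, 12.28 and 12.37 with negative siRNA. Here negative array 2 was the highest of the 8, and BNIP3 rose with siRNA 9 by 0.40 without it (SE 0.09, adjusted p = 0.0204; with it 0.29, adjusted p = 0.335). BNIP3L, its homologue, had levels of 10.87 and 10.80 with siRNA 7 and 11.17 and 11.22 with siRNA 9, against 10.90 to 11.13 with negative siRNA, so that siRNA 7 lay below and siRNA 9 above all negative arrays. The siRNA 7 minus siRNA 9 difference of BNIP3L was -0.36 (SE 0.11, adjusted p = 0.120). PDK1, the kinase that shuts pyruvate out of the citric acid cycle, had levels of 10.34 and 10.14 with siRNA 7 and 10.53 and 10.67 with siRNA 9, against 10.51, 10.62, 10.56 and 10.52 with negative siRNA. Its difference lay on the siRNA 7 side, -0.31 from negative siRNA (SE 0.10, adjusted p = 0.378), while the siRNA 9 arrays overlapped the negative arrays.

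P4HA1 and P4HA2, the alpha subunits of collagen prolyl 4-hydroxylase, showed tight pairs. P4HA1 had levels of 9.61 and 9.69 with siRNA 7 and 10.28 and 10.32 with siRNA 9, against 9.38, 10.20, 9.53 and 9.53 with negative siRNA. The negative group thus held 1 array near the siRNA 9 level and 3 below the siRNA 7 arrays. With siRNA 9 the difference from negative siRNA was 0.64 (SE 0.18, adjusted p = 0.135), and without negative array 2 P4HA1 rose by 0.82 (SE 0.09, adjusted p = 0.00098). P4HA2 had levels of 8.97 and 8.92 with siRNA 7 and 9.58 and 9.57 with siRNA 9, against 8.83, 9.44, 8.97 and 9.12 with negative siRNA. Its siRNA 7 minus siRNA 9 difference of -0.63 (SE 0.16, adjusted p = 0.0728) came closest to the threshold among the members that missed it. ERO1A, the oxidase that forms disulphide bonds in the endoplasmic reticulum, differed between the siRNAs by only -0.06 (SE 0.16), and its lowest and highest values, 10.64 and 11.29, were negative arrays 1 and 2.

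KDM3A, a histone H3 lysine 9 demethylase, had levels of 8.28 and 8.66 with siRNA 7 and 9.89 and 9.77 with siRNA 9, against 8.43, 9.55, 8.67 and 8.67 with negative siRNA. The 8 arrays formed a high set, siRNA 9 and negative array 2, and a low set of the other 5. KDM3A fell by 1.36 with siRNA 7 against siRNA 9 (SE 0.28, adjusted p = 0.0314), and only 5 probe sets of 19158 had a lower difference. Its siRNA 9 minus negative difference of 0.999 (SE 0.24) had an adjusted p of 0.0859, and without negative array 2 KDM3A rose by 1.24 (SE 0.12, adjusted p = 0.000653). INSIG2, an endoplasmic reticulum protein that holds back sterol synthesis, had levels of 8.23 and 8.39 with siRNA 7 and 9.37 and 9.43 with siRNA 9, against 8.21, 9.27, 8.65 and 8.51 with negative siRNA. It showed the same high and low sets. INSIG2 was 1.08 lower with siRNA 7 than with siRNA 9 (SE 0.25, adjusted p = 0.0475). Its siRNA 7 minus negative difference was -0.35 (SE 0.22, adjusted p = 0.835). With siRNA 9 its difference from negative siRNA was 0.74 (SE 0.22, adjusted p = 0.148), and without negative array 2 it rose by 0.94 (adjusted p = 0.0024).

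NDRG1, a stress-induced growth regulator, had levels of 11.55 and 11.59 with siRNA 7 and 12.24 and 12.15 with siRNA 9, against 11.35, 12.11, 11.54 and 11.74 with negative siRNA. ANKRD37, an ankyrin repeat protein, had levels of 8.12 and 8.13 with siRNA 7 and 8.71 and 8.65 with siRNA 9, against 7.96, 8.49, 8.34 and 8.39 with negative siRNA. In both, siRNA 9 lay above every other array, and the siRNA 7 minus siRNA 9 differences were -0.62 and -0.55 (SE 0.19 and 0.15, adjusted p = 0.122 and 0.0873). MXI1, an antagonist of MYC, was 9.57 and 9.59 with siRNA 7 and 9.81 and 9.77 with siRNA 9, against 9.53, 9.69, 9.54 and 9.55 with negative siRNA, a siRNA 9 minus negative difference of 0.21 (SE 0.09, adjusted p = 0.323).

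The spread among the 4 negative arrays was itself wide for these genes. The median SD of a member over the negative arrays was 0.228, against 0.127 over all probe sets, and 18 of 34 members (52.9%) spanned more than 0.5 log2 units there, against 11.5% of probe sets. Negative array 2 was the highest negative array in 24 members (70.6%), as in 27.6% of probe sets, and negative array 1 the lowest in 30 (88.2%), as in 22.3%. Members that were high on negative array 2 tended to be low with siRNA 7 relative to siRNA 9. Across the 34 members, negative array 2 minus the other negative arrays and siRNA 7 minus siRNA 9, which have no array in common, correlated at a Pearson r of -0.846 and a Spearman rho of -0.824, beside -0.257 and -0.200 over all 19158 probe sets. In 25 members (73.5%) the first difference was above 0 and the second below, as in 25.8% of probe sets. These are descriptions across genes, which share arrays and are not independent replicates.

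**Figure D4:**
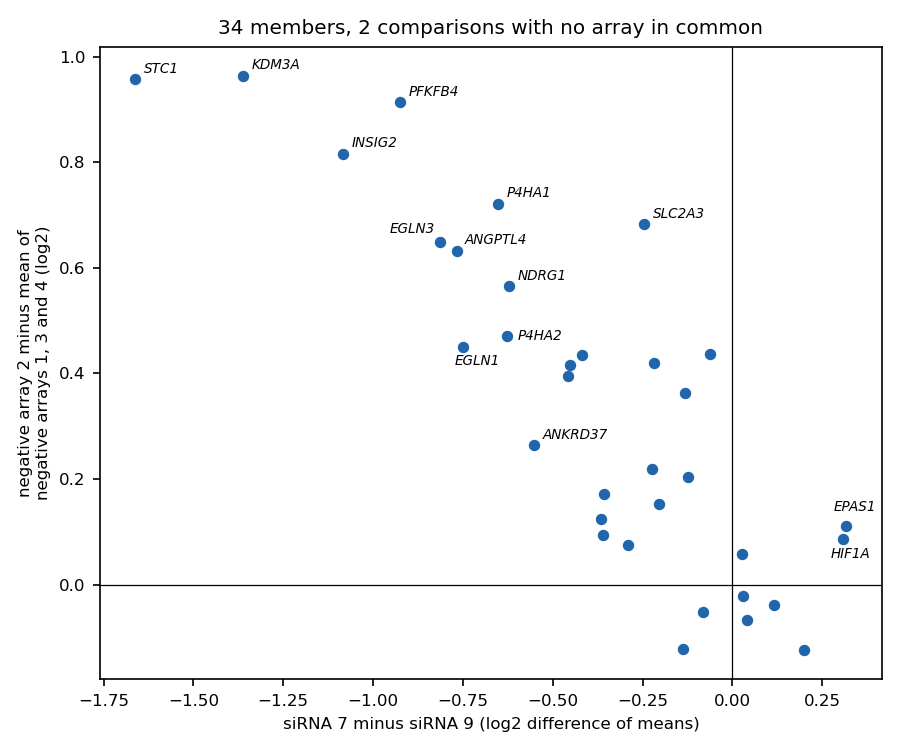
Each point is 1 of the 34 members, with the siRNA 7 minus siRNA 9 log2 difference on the x axis and negative array 2 minus the mean of the other 3 negative arrays on the y axis. STC1, KDM3A, INSIG2 and PFKFB4 lie furthest to the upper left, HIF1A and EPAS1 to the right, and the points run together at r = -0.846.

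Genes of the same pathways outside the module were taken from further lists. These lists too were chosen with earlier results of these data known, so they are not an independent check of the members. Among 27 measured genes of 30 other reported HIF targets, 1 (3.70%) rose and 0 fell with siRNA 9 against negative siRNA, where 0.924% of all probe sets passed, and between the siRNAs 4 were lower and 1 was higher with siRNA 7, together 18.5% beside 2.23% of all probe sets. Without negative array 2, 8 rose with siRNA 9 (CA12, HILPDA, WSB1, KDM4C, PLOD1, PLOD2, TMEM45A and RIMKLA) and 2 fell (TFRC and DDIT4), where 3.70% of all probe sets passed as higher and 1.87% as lower. TMEM45A, a transmembrane protein, had levels of 4.80 and 4.83 with siRNA 7 and 6.08 and 5.93 with siRNA 9, against 4.81, 5.46, 4.93 and 5.10 with negative siRNA. It rose by 0.93 with siRNA 9 against negative siRNA (SE 0.15, adjusted p = 0.0173, and 0.0616 without negative array 3). Over 16 alternatives this difference lay between 0.84 and 1.06, and the call held in 11. TMEM45A was 1.19 lower with siRNA 7 than with siRNA 9 (SE 0.18, adjusted p = 0.0104). Its siRNA 7 minus negative difference was -0.26 (SE 0.15, adjusted p = 0.804). The comparison of the siRNAs also called HILPDA, a lipid droplet protein, at -0.83, PPP1R3C, a glycogen-targeting subunit of protein phosphatase 1, at -0.61, and RIMKLA, an N-acetylaspartylglutamate synthetase, at -0.69 (adjusted p = 0.0485, 0.0268 and 0.0333). TFRC, the transferrin receptor, ran against them, with levels of 12.50 and 12.51 with siRNA 7 and 11.91 and 12.03 with siRNA 9, against 12.27 to 12.57 with negative siRNA, and was 0.54 higher with siRNA 7 than with siRNA 9 (adjusted p = 0.0399). None of these 5 calls between the siRNAs passed without siRNA 9 array 1, siRNA 9 array 2 or siRNA 7 array 2. Without siRNA 7 array 1 those of TFRC, HILPDA and RIMKLA were lost, without negative array 3 those of TFRC, HILPDA and PPP1R3C, and without negative array 4 that of HILPDA (adjusted p of lost calls 0.0519 to 0.322).

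The other 12 measured of 16 glycolysis genes and the other 14 measured of 15 oxygen sensing genes had 0 calls in every comparison. At an unadjusted p under 0.05 there were 3 of 12 (25%) and 3 of 14 (21.4%) with siRNA 9 against negative siRNA, where 13.6% of all probe sets were, and without negative array 2 there were still 0 calls in that comparison. PKM, pyruvate kinase, had levels of 12.23 and 12.30 with siRNA 7 and 12.05 and 11.96 with siRNA 9, against 12.16 to 12.32 with negative siRNA (siRNA 9 minus negative -0.24, SE 0.09, adjusted p = 0.258). PFKM, muscle-type phosphofructokinase, differed by -0.24 in the same comparison (adjusted p = 0.260). VHL, the ubiquitin ligase subunit that binds hydroxylated HIF alpha, differed by 0.26 and CREBBP, a HIF coactivator, by 0.25 (adjusted p = 0.268 and 0.234). GAPDH ranged only from 14.04 to 14.10, at or near the highest level on each array.

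**Figure D5:**
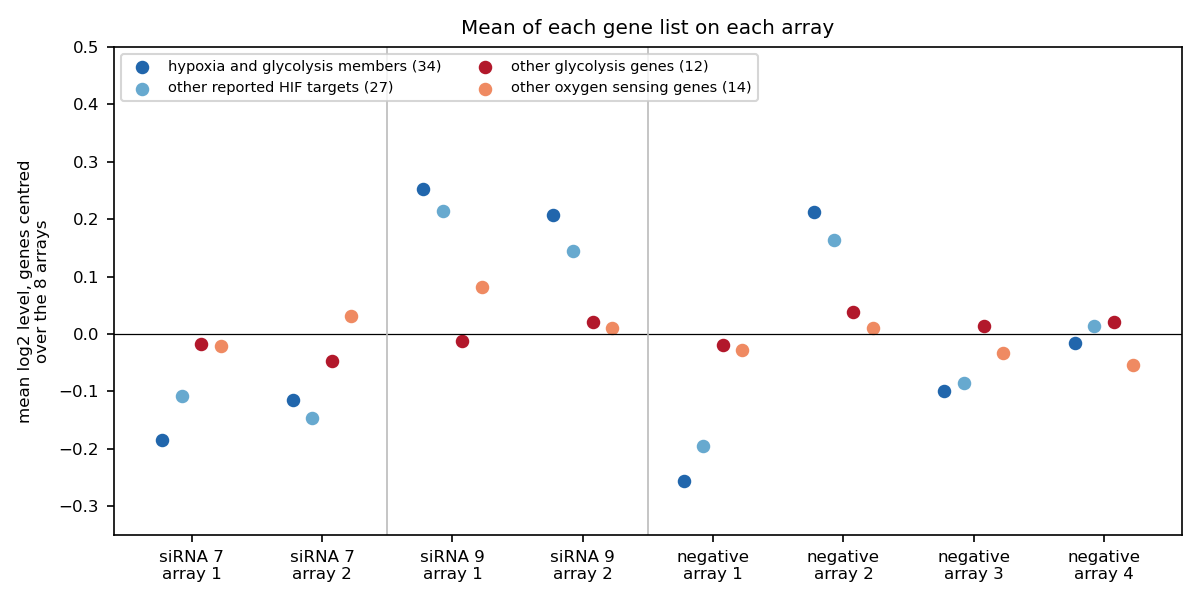
Mean log2 level per array of 4 gene lists, each gene centred on its mean over the 8 arrays. The 34 members and 27 other reported HIF targets run together, high with siRNA 9 and on negative array 2, while 12 other glycolysis and 14 other oxygen sensing genes stay within 0.1 of 0.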

How the data were processed

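RNA of HSC39 cells was hybridised to 8 Affymetrix whole-transcript arrays. The authors deposited levels on the log2 scale for 32321 probe sets on each array, and used limma per the submitters' processing notes (normalization, filters and genome build: not given in the sources used here). No background signal came with them, so whether a dim probe set is absent cannot be said. Few arrays limit the precision.

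Genes were named from the platform annotation (19128 probe sets found in RefSeq, 0 symbols changed). The 19158 probe sets with 1 symbol were tested, and the one of highest mean stood for a gene (of the members, TPI1 has 2). TRIM44 siRNA was set against negative siRNA in a 2-group limma fit, and each siRNA against negative siRNA and against the other in a fit of 3 group means, with 2-sided moderated tests, Benjamini-Hochberg adjustment over all 19158 and a threshold of 0.05. Differences are first group named minus second. Members and lists were chosen with earlier results of these data known, so they are not independent support for earlier results. All members could be named; full statistics went to members past the threshold, the 2 per role group with the largest difference between the siRNAs and the 3 of widest negative range, and of other lists the 2 of smallest p with siRNA 9. Other genes given in full, such as HIF1A, EPAS1, GYS1, BNIP3L and MXI1, were chosen after their values were seen. The alternatives tried were median centring, quantile normalization, all probe sets, the upper 50% of them, another variance prior, array weights, a replicate block, averaged probe sets, only the arrays compared, siRNA identity as a random block and leaving out each array. The fits were tested on simulated data. Columns of other series numbered 0. Software was limma 3.58.1 with statmod 1.5.0 in R 4.3.3, and matplotlib 3.10.9 for plots.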

Additional observations from a re-analysis of the deposited data

Results flagged for a closer look

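Among 49 groups of 4 negative arrays, 1 each for the members and other named genes and 1 for the member mean, 3 held an array far from the other 3, where chance gives about 1 in 20. The gap over the range was 0.883 for MXI1, whose negative array 2 (9.69) stood above the other 3 (9.53 to 9.55), 0.890 for CREBBP, whose negative array 1 (10.20) stood above the other 3 (all at 10.17), and 0.830 for ARRDC4, an arrestin-like protein induced by glucose, whose negative array 4 (7.76) stood below the other 3 (7.89 to 7.92).

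Of the genes named here, 9 passed the threshold between siRNA 7 and siRNA 9, tested as the difference itself, where 2.23% of all probe sets passed. They are listed because they passed, and how these calls depend on single arrays is given above. Their differences, siRNA 7 minus siRNA 9, were -1.66 for STC1, -1.36 for KDM3A, -1.19 for TMEM45A, -1.08 for INSIG2, -0.83 for HILPDA, -0.75 for EGLN1, -0.69 for RIMKLA, -0.61 for PPP1R3C and 0.54 for TFRC. TRIM44 itself had levels of 10.85 and 11.27 with siRNA 7 and 11.10 and 11.14 with siRNA 9.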

How the results depend on the processing

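The count of members past the threshold was 0 for TRIM44 siRNA against negative siRNA and 0 for siRNA 7 against negative siRNA under every alternative. For siRNA 9 against negative siRNA the count of 0 became 16 with array weights (14 higher, 2 lower), where 10.9% of all probe sets passed. It was 2 in the upper 50% of probe sets (4.07% passed there), 1 with averaged probe sets (1.15%) and 1 with only the arrays compared (0.82%). With 1 negative array left out it was 0 to 12, the 12 without negative array 2 (5.57%). Between the siRNAs the count of 4 became 11 with array weights and 11 with only the arrays compared, where 5.55% and 4.21% of all probe sets passed. It was 2 with median centring (2.06% passed) and 0 with all probe sets tested (0.0248%). Without negative array 2 it reached 12 (5.48%), and its dependence on the other arrays is given above. A trended and robust prior called 6, of which EGLN1 alone was among the 4, and 4.13% of all probe sets passed with it. Over all probe sets, calls ranged from 0 to 2082 for siRNA 9 (177 as reported), 0 to 1063 between the siRNAs (428), 0 to 83 for siRNA 7 (13) and 0 to 33 for both together (1), and the largest numbers came with array weights except for siRNA 7. Medians over the members ranged from 0.13 to 0.24 for siRNA 9 (0.19 as reported), from -0.33 to -0.28 between the siRNAs (-0.32), from -0.19 to -0.01 for siRNA 7 (-0.12) and from -0.00078 to 0.14 for both together (0.05), the last with a change of sign. SLC2A3 turned to -0.036 with siRNA 9 under the replicate block, and PDK1 ranged from -0.023 to 0.119 when 1 array was left out; neither passed a threshold. The replicate numbers do not mark a shared batch or culture in the labels, and only numbers 1 and 2 occur in every group. For these reasons the numbers were not taken to pair the arrays. Deviations of same-numbered arrays correlated at 0.27 and 0.31 between siRNA 7 and negative siRNA. The values were 0.06 and 0.13 between siRNA 9 and negative siRNA, and 0.02 between the siRNAs. With 2 arrays per siRNA, the deviations of its arrays from their mean are mirror images. The 2 values of a comparison are therefore not separate observations, and swapping the numbers of the siRNA arrays only changes their sign. These values cannot decide whether the numbers pair the arrays. The replicate block gave 4 members between the siRNAs and 0 for siRNA 9. The causes of these shifts were not tested. Of 704 values of single named genes under alternatives, 583 kept direction and side of the threshold, 63 lost the call, 56 gained one and 2 changed sign.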

Other observations

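The lists of gluconeogenesis and pentose phosphate genes (7 measured) and of glucose sensing genes (5 measured) had 0 calls over the 8 arrays in every comparison, with 1 of 7 (14.3%) and 0 of 5 at an unadjusted p under 0.05 for siRNA 9 against negative siRNA, where 13.6% of all probe sets were. PCK1, the cytosolic phosphoenolpyruvate carboxykinase, had levels of 6.10 and 6.47 with siRNA 7 and 7.12 and 6.99 with siRNA 9, against 5.97, 6.48, 6.27 and 6.66 with negative siRNA (siRNA 9 minus negative 0.71, SE 0.17, limma adjusted p = 0.0797). Without negative array 2 PCK1 rose by 0.75 with siRNA 9 (adjusted p = 0.0300), the only call of either list in that fit, where 5.57% of all probe sets passed. Both siRNA 9 arrays lay above every other array, and negative array 2 was not the highest negative array. PCK2, its mitochondrial counterpart, was spread over the negative arrays from 10.34 to 11.32, with 10.93 and 9.92 for siRNA 7 and 10.40 and 10.21 for siRNA 9. TXNIP, a glucose-induced inhibitor of glucose uptake, differed from negative siRNA by 0.00 with siRNA 9 (SE 0.18).

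DDIT4, a HIF target outside the module and an inhibitor of mTORC1 induced by several stresses, had levels of 10.45 and 9.68 with siRNA 7 and 9.54 and 9.48 with siRNA 9, against 10.35, 10.09, 10.45 and 10.18 with negative siRNA. Its siRNA 9 arrays lay below every other array, a difference of -0.76 from negative siRNA (SE 0.18, adjusted p = 0.0748), and without negative array 2 it fell by 0.82 (adjusted p = 0.0234). WSB1, an adaptor of a ubiquitin ligase, and PLOD2, a collagen lysyl hydroxylase, lay on the other side of negative siRNA, with siRNA 9 minus negative differences of 0.51 and 0.59 (adjusted p = 0.0706 and 0.216). Without negative array 2 they rose by 0.60 and 0.79 (adjusted p = 0.00373 and 0.00309). These 3 genes and MIR210, the gene of a microRNA known to be induced by hypoxia, were singled out after their values were seen. MIR210 had levels of 9.11 and 9.02 with siRNA 7 and 9.20 and 9.05 with siRNA 9, against 9.02, 8.89, 8.98 and 9.23 with negative siRNA, and negative array 2 was its lowest negative array. Its siRNA 9 minus negative difference was 0.09 (SE 0.11, adjusted p = 0.801).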
